A study of Mus musculus with 10 samples.

Results

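Nrf2, the transcription factor encoded by Nfe2l2, drives the cell's defence against oxidants and electrophiles. The adaptor KEAP1 holds it in the cytoplasm and passes it to a CUL3 ubiquitin ligase for destruction. When reactive molecules modify KEAP1, Nrf2 escapes, pairs with a small MAF protein and binds antioxidant response elements near genes for glutathione synthesis, quinone reduction, haem breakdown and thioredoxin recycling. The liver is the main site of glutathione synthesis. Glutamate-cysteine ligase, made of a catalytic subunit (Gclc) and a modifier subunit (Gclm), carries out the rate-limiting step, and glutathione synthetase (Gss) completes the tripeptide. Because Nrf2 is controlled largely through the stability of its protein, its transcript level does not measure its activity.

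The genes described here are Nfe2l2, Keap1, Gclc, Gclm, Gss, Gsr, Nqo1, Hmox1, Txnrd1 and Srxn1, a set chosen by function. They were found by gene symbol in the platform annotation, which gave 18 probe sets for 10 of 10 genes, among 12366 genes with a symbol of their own. Of the 10, 3 had 1 probe set, 6 had 2 and 1 had 3, and 0 probe sets with several symbols named one of them. Livers of 5 control mice and 5 mice with floxed Dicer1 alleles on both chromosomes and a Cre recombinase driven by Afp (DicerloxP/loxP;Afp-Cre+) were compared at 28 days of age after a fast of 5 hours. Afp is active in fetal liver cells, so that cells which never expressed it keep Dicer1, the enzyme that cuts precursors into mature microRNAs. The control genotype and the sex are not given in the labels, and the strain is given as mixed. Each liver gave 1 array, and nothing in the labels links animals to litters.

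All values are log2 signals, and differences are mutant minus control with the standard error of limma's linear model. Adjusted p-values are Benjamini-Hochberg values over all 25958 probe sets, and a probe set was called at an adjusted p under 0.05. A signal is compared between livers for the same probe set only. Dicer1 was lower in 5 of 5 mutants on both of its probe sets, with a difference of -2.31 on one (SE 0.10) and -1.03 on the other (SE 0.07), at adjusted p = 4.1e-05 and 0.000678. Of 9 hepatocyte markers, 0 were called, and the log2 of their summed signal ran from 18.52 to 18.69 in controls and from 18.49 to 18.70 in mutants. Of the markers of other cells, 5 of 13 for macrophages and 4 of 9 for stellate cells were called higher and 0 lower in each list. For bile duct cells 1 of 6, Prom1, was called higher, and for sinusoidal endothelium 1 of 7, Lyve1, was called lower. None of the 4 erythroid, 4 neutrophil or 3 lymphocyte markers was called. In whole liver, fewer cells of a type and less RNA per cell cannot be told apart.

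Of the 10 genes, 1 was called higher in mutant liver, 1 was called lower and 8 were not called, counting each gene by its brightest probe set. Nfe2l2 rose and Gclc fell. The share of all genes called was 7.29% higher and 9.56% lower. Over probe sets the counts were 1 higher and 2 lower of 18, against 5.8% and 7.39% of all probe sets. The groups did not overlap for 3 of the 18, the same 3 that were called, against 10.3% of all probe sets. The median difference was 0.13 over the 10 genes and -0.012 over all genes. The set as a whole was thus near the background of this comparison, and its description rests on the individual genes.

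**Figure D1:**
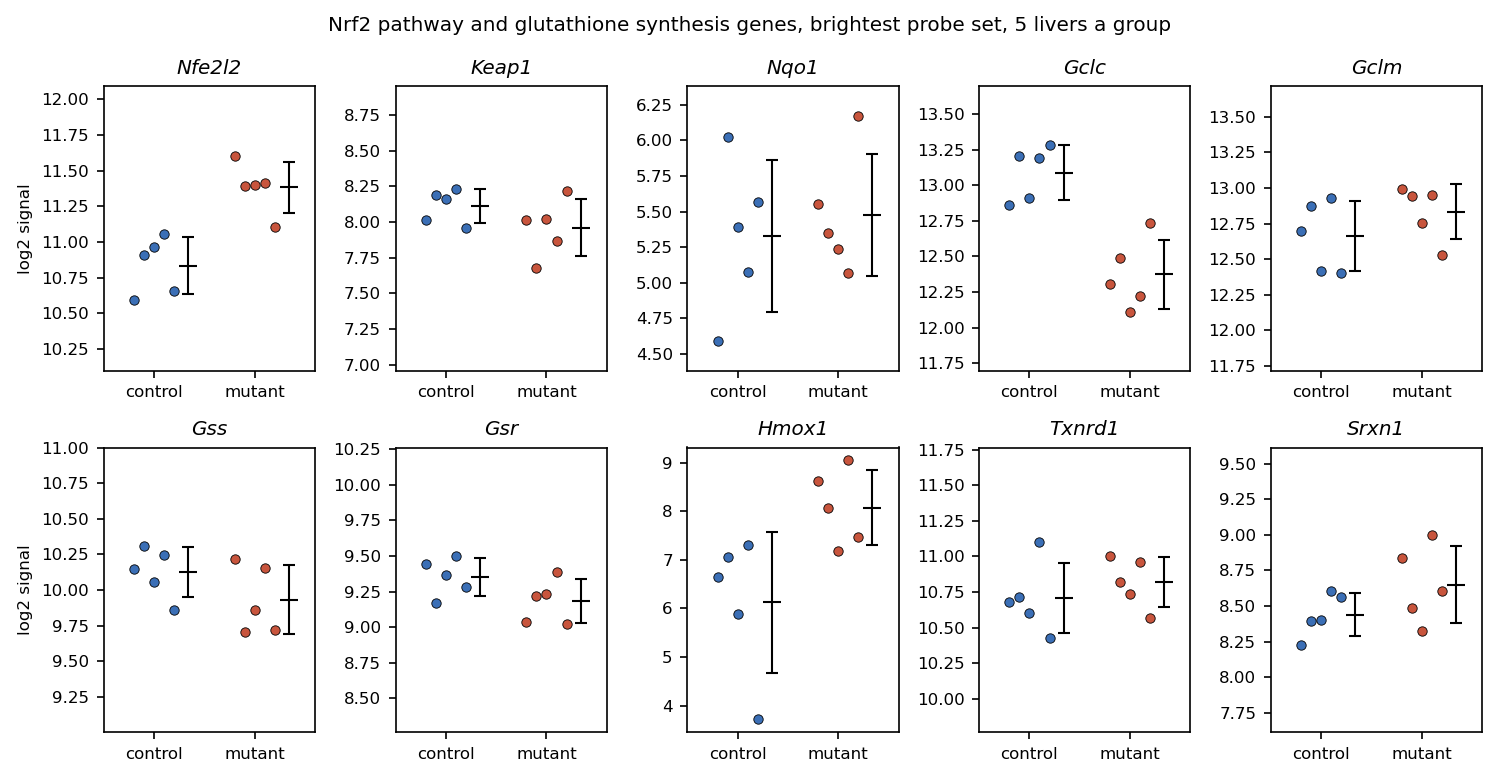
Log2 signal of the brightest probe set of each of the 10 genes in 5 control (blue) and 5 mutant (red) livers, with the group mean and SD beside the points; each panel has its own y axis, which spans at least 2 log2 units. Control and mutant points are apart for Nfe2l2 and Gclc and overlap for the other 8 genes.

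Promoter sequence is shown for 3 of the genes because the element through which Nrf2 acts can be looked for in it. RefSeq windows on GRCm38.p6, from 250 bases before to 50 bases after each annotated start, matched 7 of the 10 genes with 9 windows. Gclc, Gsr and Hmox1 had no window and were not searched. The core of the antioxidant response element was searched as TGACNNNGC on both strands. It was found in 4 of the 9 windows, those of Nfe2l2, Gclm and Srxn1 and 1 of 3 of Txnrd1, and in 12.4% of all 32851 windows of this length. The looser form TGANNNNGC, which includes the first, was found in 6 of 9 and in 41.3% of all. In the windows below, capitals mark matches to TGACNNNGC. They belong to the 3 genes that had 1 window with a match in it. The matching Txnrd1 window is not shown, and those of Keap1, Nqo1 and Gss held no match to TGACNNNGC. Sequence outside the windows was not searched, so a window without a match does not show that a gene lacks the element. The match lay at -240 to -232 relative to the start in Nfe2l2 (chr2:75704614-75704913, minus strand), at -134 to -126 on the opposite strand in Gclm (chr3:122245307-122245606, plus strand), and at 29 to 37 on the opposite strand in Srxn1 (chr2:152105274-152105573, plus strand). Srxn1 also held the looser form at -158 to -150, -57 to -49 and -45 to -37. A match is a run of letters and not a measured binding site.
Nfe2l2: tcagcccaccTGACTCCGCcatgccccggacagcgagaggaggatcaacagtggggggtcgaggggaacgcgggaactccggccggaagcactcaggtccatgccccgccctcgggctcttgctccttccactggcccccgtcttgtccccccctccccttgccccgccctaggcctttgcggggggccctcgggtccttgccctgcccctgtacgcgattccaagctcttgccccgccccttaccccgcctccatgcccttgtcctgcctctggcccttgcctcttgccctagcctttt
Gclm: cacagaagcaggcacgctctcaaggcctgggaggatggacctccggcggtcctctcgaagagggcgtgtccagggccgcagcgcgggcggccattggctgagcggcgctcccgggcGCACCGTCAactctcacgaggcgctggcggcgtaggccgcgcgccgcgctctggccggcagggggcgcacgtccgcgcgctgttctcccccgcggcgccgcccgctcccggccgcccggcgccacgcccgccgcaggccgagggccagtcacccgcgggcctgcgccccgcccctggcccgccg
Srxn1: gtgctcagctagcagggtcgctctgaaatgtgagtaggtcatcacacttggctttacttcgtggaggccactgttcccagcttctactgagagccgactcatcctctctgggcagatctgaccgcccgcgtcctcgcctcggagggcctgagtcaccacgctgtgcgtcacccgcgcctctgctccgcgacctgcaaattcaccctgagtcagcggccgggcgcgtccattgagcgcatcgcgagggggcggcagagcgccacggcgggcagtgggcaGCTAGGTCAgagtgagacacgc

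The transcription factor itself rose on its bright probe set. Nfe2l2 stood at 10.59, 10.91, 10.97, 11.05 and 10.66 in control replicates 1 to 5 and at 11.60, 11.39, 11.40, 11.41 and 11.10 in mutant replicates 1 to 5. All 5 mutants lay above all 5 controls, with mutant replicate 5 closest to them. Control livers averaged 10.83 ± 0.20 (SD, n = 5) and mutant livers 11.38 ± 0.18 (SD, n = 5). The rise was 0.55 (SE 0.11, adjusted p = 0.0188). The call held in all 10 fits that left out 1 array (adjusted p from 0.00489 to 0.0480).

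The other Nfe2l2 probe set went the opposite way in most mutants. It stood at 6.46, 6.98, 5.78, 7.08 and 7.23 in controls and at 5.07, 2.82, 5.03, 5.03 and 7.70 in mutants. Of the mutants, 4 lay below all controls and mutant replicate 5 lay above them. The difference of -1.58 (SE 0.76, adjusted p = 0.209) was not called. Without mutant replicate 5 it was -2.22, with an adjusted p = 0.0192 by limma. The signal of mutant replicate 2 on this probe set was below 3.60, the 25th percentile of all values. The positions of the probe sets on the transcript were not analysed here. The direction given for Nfe2l2 is therefore that of its bright probe set, and the mean of both probe sets differed by -0.51 (adjusted p = 0.355).

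Keap1, the adaptor that restrains Nrf2, was not called. Its brighter probe set ran from 7.96 to 8.23 in controls and from 7.68 to 8.22 in mutants, a difference of -0.15 (95% interval -0.38 to 0.07, adjusted p = 0.369). The other ran from 7.08 to 7.31 and from 6.54 to 7.69, a difference of -0.17 (95% interval -0.58 to 0.24). On both probe sets mutant replicate 5 was the highest mutant and mutant replicate 2 the lowest.

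Gclc, the catalytic subunit of glutamate-cysteine ligase, fell on both of its probe sets. The brighter stood at 12.86, 13.20, 12.91, 13.19 and 13.28 in controls and at 12.31, 12.49, 12.11, 12.22 and 12.73 in mutants. The other stood at 11.65, 11.99, 11.47, 11.90 and 11.81 in controls and at 11.02, 11.35, 10.77, 10.94 and 11.31 in mutants. On both, all 5 mutants lay below all 5 controls. The brighter probe set fell by 0.71 (SE 0.13, adjusted p = 0.0131), from 13.09 ± 0.19 (SD, n = 5) to 12.37 ± 0.24 (SD, n = 5). The other fell by 0.68 (SE 0.14, adjusted p = 0.0160), from 11.76 ± 0.20 (SD, n = 5) to 11.08 ± 0.25 (SD, n = 5). On the linear scale the decreases amount to 1.64-fold and 1.61-fold, if the values are log2 as read here. The calls held in all 10 fits that left out 1 array (adjusted p from 0.00207 to 0.0355 and from 0.00703 to 0.0434).

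Gclm, the modifier subunit that raises the enzyme's affinity for glutamate and lessens its inhibition by glutathione, was not called. It stood at 12.70, 12.87, 12.42, 12.93 and 12.40 in controls and at 12.99, 12.94, 12.75, 12.95 and 12.53 in mutants. The groups overlapped, and 3 mutants lay above all controls. The difference was 0.17 (95% interval -0.13 to 0.47, adjusted p = 0.472), and 0.20 (95% interval -0.03 to 0.42, adjusted p = 0.231) on the other probe set.

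The Gclc signal minus the Gclm signal, of which only the change between groups can be read, was 0.16, 0.33, 0.49, 0.26 and 0.88 in controls and -0.69, -0.45, -0.64, -0.72 and 0.20 in mutants. Mutant replicate 5 lay within the control range and the other 4 mutants below it. The group means were 0.42 ± 0.28 (SD, n = 5) and -0.46 ± 0.39 (SD, n = 5), which differ by -0.88, and by -1.05 to -0.77 with 1 array left out. The pair was chosen after the values were seen, so the difference is a description with no test.

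**Figure D2:**
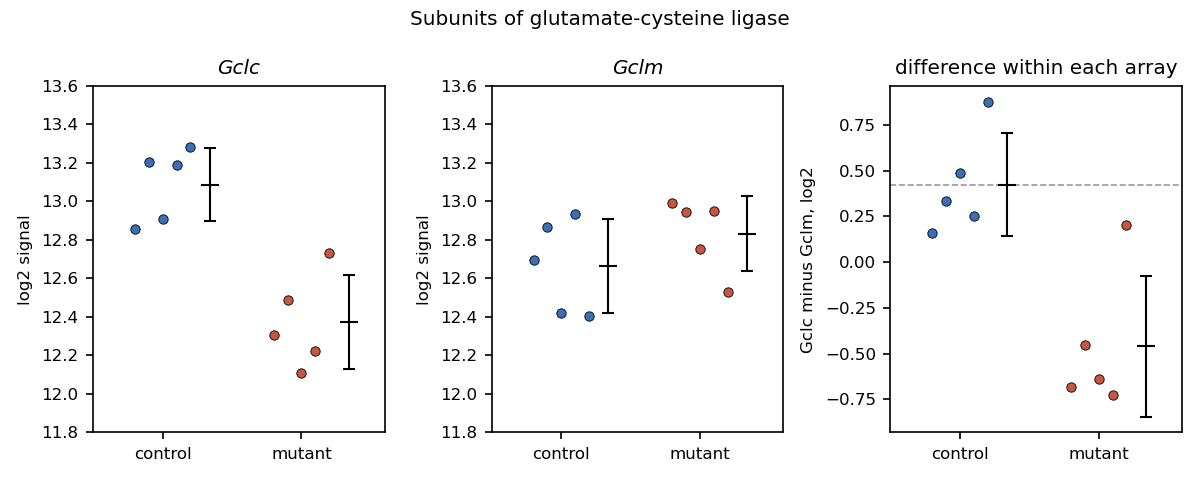
Log2 signal of the brightest Gclc and Gclm probe sets, on the same y range, and their difference within each array, in 5 control (blue) and 5 mutant (red) livers with group mean and SD; the dashed line is the control mean of the difference. Gclc is lower in all mutants, Gclm overlaps between groups, and the difference is below the control range in 4 of 5 mutants.

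The remaining enzymes of glutathione synthesis and recycling were not called. Gss, which adds glycine in the last step, ran from 9.86 to 10.31 in controls and from 9.70 to 10.22 in mutants. Its difference was -0.19 (95% interval -0.48 to 0.09, adjusted p = 0.368), and -0.05 on its other probe set. Gsr, glutathione reductase, which returns oxidised glutathione to its reduced form with NADPH, ran from 9.17 to 9.50 and from 9.02 to 9.39. It differed by -0.17 (95% interval -0.37 to 0.03, adjusted p = 0.241) and by -0.07 on its other probe set. These intervals leave room for changes of up to 0.48 on the log2 scale in Gss and 0.37 in Gsr.

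Among the detoxifying targets of Nrf2 the largest measured difference was that of Hmox1, and it was not called. Hmox1, the inducible haem oxygenase, is also abundant in macrophages that clear red cells. It stood at 6.66, 7.06, 5.89, 7.31 and 3.72 in controls and at 8.63, 8.06, 7.17, 9.05 and 7.47 in mutants. All but mutant replicate 3 lay above all controls, and control replicate 5 was far below the other controls, near the 25th percentile of all values (3.60). The difference was 1.95 (SE 0.68, 95% interval 0.41 to 3.49, adjusted p = 0.0925). Without control replicate 5 it was 1.35 (adjusted p = 0.0943), and 0 of 10 fits that left out 1 array called it (adjusted p from 0.0864 to 0.191). It passed when dim probe sets were left out (adjusted p = 0.0420).

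Like those of some other cells, macrophage markers moved in the same direction as Hmox1. The log2 of the summed signal of 13 markers ran from 13.58 to 14.35 in controls and from 14.39 to 14.89 in mutants, and the groups did not overlap. The mean log2 signal of the same markers ran from 8.93 to 9.83 in controls and from 9.79 to 10.10 in mutants, and on this measure control replicate 3 lay above mutant replicate 3. Of the 13, 0 lay below the 25th percentile of all values in both groups, and 12 of 13 differences were positive, with a median of 0.59. Control replicate 5, the lowest for Hmox1, had a mean marker signal of 9.58, inside the control range. Control replicate 4, the highest control for Hmox1, had the lowest mean marker signal. For stellate cell markers 9 of 9 differences were positive, with a median of 0.59. The mean log2 signal of these markers ran from 9.45 to 9.77 in controls and from 9.92 to 10.47 in mutants, without overlap. Medians were positive for hepatocyte (0.04), bile duct (0.28) and neutrophil (0.68) markers. They were negative for sinusoidal endothelial (-0.16), erythroid (-0.49) and lymphocyte (-0.21) markers. A positive median was thus not particular to the macrophage list. Called higher were 5 of 13 macrophage, 4 of 9 stellate cell and 1 of 6 bile duct markers, beside 7.29% of all genes. None of the hepatocyte or neutrophil markers was called. The part of macrophages or of any other cell type in the Hmox1 difference was not tested.

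**Figure D3:**
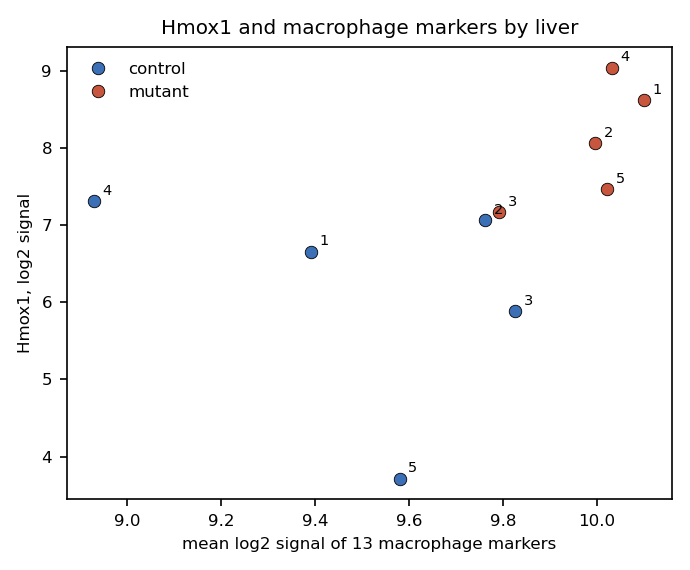
Hmox1 log2 signal (y axis) against the mean log2 signal of 13 macrophage markers (x axis) in each liver, control in blue and mutant in red, with replicate numbers beside the points. Mutants lie to the upper right; among controls the liver with the lowest Hmox1 signal, 3.72, has a marker mean of 9.58, and control replicate 2 and mutant replicate 3 lie on top of each other.

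Nqo1, the quinone reductase used widely as a readout of Nrf2 activity, showed no called difference. It stood between 4.59 and 6.02 in controls and between 5.07 and 6.17 in mutants. The difference of 0.15 (95% interval -0.49 to 0.78, adjusted p = 0.821) is imprecise, and its sign turned without control replicate 1 (-0.04) or mutant replicate 5 (-0.03). Its mean lay at percentile 40.2 of all probe sets.

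Txnrd1 and Srxn1 were not called. Txnrd1, the cytosolic thioredoxin reductase, ran from 10.43 to 11.10 in controls and from 10.57 to 11.00 in mutants, a difference of 0.11 (95% interval -0.18 to 0.40, adjusted p = 0.649). Srxn1, sulfiredoxin, which repairs overoxidised peroxiredoxins, differed by 0.21, 0.21 and 0.22 on its 3 probe sets (adjusted p from 0.149 to 0.333). On the brightest, controls ran from 8.23 to 8.61 and mutants from 8.33 to 8.998, with mutant replicates 1 and 4 above all controls. On the 2 dimmer probe sets 4 of 5 mutants were above all controls.

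**Figure D4:**
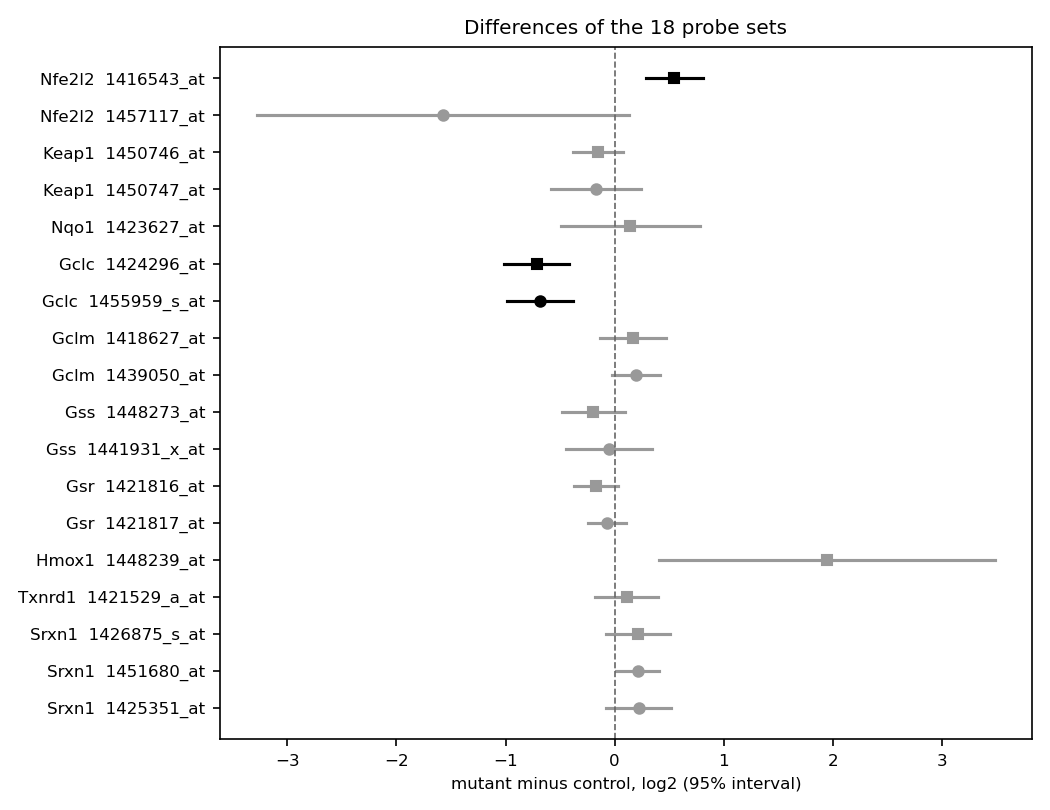
Difference of mutant minus control on the log2 scale for each of the 18 probe sets, with its 95% interval from the linear model; squares mark the brightest probe set of a gene and black marks those called at an adjusted p under 0.05. Only the bright Nfe2l2 probe set and both Gclc probe sets are black; the intervals of Hmox1 and the dim Nfe2l2 probe set are the widest.

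Single livers held the extreme values of several of these genes, some of which varied together. Within groups, Pearson r of gene pairs ran from -0.855 (Nqo1 and Gsr) to 0.877 (Gclm and Txnrd1). Extremes shared by 1 liver are therefore not separate observations. Control replicate 4 had the highest control signal for 7 of the 10 genes (Nfe2l2, Keap1, Gclm, Gsr, Hmox1, Txnrd1 and Srxn1). Control replicate 5 had the lowest for 5 (Keap1, Gclm, Gss, Hmox1 and Txnrd1) and control replicate 1 for 4 (Nfe2l2, Nqo1, Gclc and Srxn1). Mutant replicate 1 had the highest mutant signal for 4 (Nfe2l2, Gclm, Gss and Txnrd1). Mutant replicate 5 had the lowest mutant signal for Nfe2l2, Gclm, Gsr and Txnrd1 and the highest for Keap1, Nqo1 and Gclc. On these brightest probe sets of Nfe2l2 and Gclc it was the mutant nearest to the controls. On the other Gclc probe set mutant replicate 2 was nearest, at 11.35 against 11.31.

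The genes whose signal over the 10 arrays was most like that of Gclc, among 7717 genes at or above the median signal, were Ybx1 (Pearson r = 0.958), Mrps6 (0.953) and Setd6 (0.952). Those most like Nfe2l2 were Cpox (0.974), Sh3bgrl2 (0.962) and Rassf5 (0.951). The group difference enters these values. Within groups they were 0.807, 0.783 and 0.783 for the first 3 and 0.904, 0.859 and 0.825 for the others, over the same 10 arrays. These genes were picked as the highest of 7717 on those arrays, so the within-group values are high partly through that choice.

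Related genes of the pathway were read from 6 lists, each gene by its brightest probe set, beside a background of 7.29% of all genes higher and 9.56% lower. The counts cover measured genes only. Some listed genes had no probe set with a symbol of their own, among them Prdx1, Prdx5, Prdx6, G6pdx and Ftl1. Nfe2l3, Slc7a11, Glrx3 and Cbr3 had means below 3.60, the 25th percentile of all values, in both groups. Of 15 regulators and partners of Nrf2, 2 rose and 1 fell, with a median of 0.20. Nfe2l1, a related transcription factor that shares small MAF partners, rose by 0.85 (SE 0.19, adjusted p = 0.0215), a call that leaving out control replicate 3, mutant replicate 3 or mutant replicate 4 removed (adjusted p from 0.0505 to 0.0554). Sqstm1, the autophagy adaptor p62 that binds KEAP1, rose by 0.41 (adjusted p = 0.0440), and Park7 fell by 0.28 (adjusted p = 0.0319). The other Sqstm1 probe set differed by 0.40 (adjusted p = 0.224) and the other Park7 probe set by -0.25 (adjusted p = 0.153). The Sqstm1 call was held only without mutant replicate 5 (adjusted p up to 0.0947 otherwise), and that of Park7 in just the fits that omitted control replicate 2 or mutant replicate 5 (up to 0.0730 otherwise). Bach1, the repressor that competes with Nrf2 for these elements, differed by 0.41 (adjusted p = 0.0517). It passed under 5 other settings, among them quantile normalization and subtraction of each array's 75th percentile (adjusted p from 0.0312 to 0.0417). Leaving out control replicate 3 or mutant replicate 4 left 0 regulators higher, leaving out mutant replicate 5 gave 3, and any other array 1.

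Of 13 genes of the supply or use of methionine, cysteine or cystine, 3 rose and 1 fell, with a median of -0.0045. Cth, cystathionine gamma-lyase, which releases cysteine for glutathione, stood between 14.14 and 14.80 in controls and between 15.05 and 15.45 in mutants. It rose by 0.78 (SE 0.14, adjusted p = 0.0131), with groups that did not overlap. The call held in all 10 fits that left out 1 array. Bhmt, which remethylates homocysteine, rose by 0.38 (adjusted p = 0.0203, and 0.05004 without mutant replicate 4), and the neutral amino acid transporter Slc1a4 rose by 0.96 (adjusted p = 0.0460). Ahcy, which makes homocysteine from S-adenosylhomocysteine, fell by 0.49 (adjusted p = 0.0269). Slc1a4 kept its call in just the fits that omitted control replicate 2 or mutant replicate 5 (otherwise an adjusted p of up to 0.1002), and Ahcy in those that omitted control replicate 2, control replicate 3 or mutant replicate 5 (up to 0.0621). The number that rose was 1 without mutant replicate 4, 3 without control replicate 2 or mutant replicate 5 and 2 otherwise.

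Of 20 genes that use or break down glutathione, 1 rose and 3 fell, with a median of -0.12. Chac1, which cleaves glutathione in the cytosol, stood between 7.94 and 8.85 in controls and between 5.02 and 7.60 in mutants. It fell by 2.03 (SE 0.46, adjusted p = 0.0234), a call that leaving out control replicate 3, control replicate 4 or mutant replicate 4 removed (adjusted p from 0.0516 to 0.0563). Glo1, glyoxalase 1, which uses glutathione to remove methylglyoxal, fell by 0.88 (SE 0.13, adjusted p = 0.00724), and 4 of its 4 probe sets were called lower, by -0.88 to -1.39. Glrx2, a mitochondrial glutaredoxin, fell by 0.50 (adjusted p = 0.0486) with 3 of 3 probe sets called lower, although this call was held only without mutant replicate 5 (up to 0.104 otherwise). The gene that rose was Gpx7, a peroxidase of the endoplasmic reticulum, at 2.28 (SE 0.31, adjusted p = 0.00630). Leaving out control replicate 3, control replicate 4 or mutant replicate 4 left 1 gene lower, leaving out mutant replicate 5 gave 4, and any other array 2.

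In the thioredoxin and peroxiredoxin list 4 of 15 genes fell and 1 rose, with a median of -0.22. Prdx4, the peroxiredoxin of the endoplasmic reticulum, fell by 0.56 (SE 0.08, adjusted p = 0.00738), although its 3 dimmer probe sets were not called. Msra, a methionine sulfoxide reductase, fell by 0.67 (SE 0.14, adjusted p = 0.0193), and both kept their call in all 10 fits that left out 1 array. The mitochondrial thioredoxin Txn2 fell by 0.71 (adjusted p = 0.0390) and Prdx2 fell by 0.45 (adjusted p = 0.0374). Txn2 was called only without mutant replicate 5 (up to 0.0909 otherwise), and Prdx2 in the fits that omitted control replicate 1, mutant replicate 1 or mutant replicate 5 (up to 0.0873 in the others), while a dimmer Prdx2 probe set differed by 1.58 (adjusted p = 0.295). Sesn3 rose by 0.58 (adjusted p = 0.0438), a call kept in just the fits that omitted control replicate 5 or mutant replicate 5 (up to 0.0949 in the others). By the mean of all its probe sets Sesn3 differed by 0.22 (adjusted p = 0.322). Leaving out mutant replicate 5 gave 7 lower genes, control replicate 1 or mutant replicate 1 gave 3, and any other array 2.

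Of 25 other Nrf2 target genes, 2 rose and 5 fell, with a median of 0.18, so that the median and the balance of calls differ in sign. Me1, the malic enzyme that makes NADPH, fell by 1.34 (SE 0.22, adjusted p = 0.0102), and the carbonyl reductase Cbr1 rose by 0.61 (SE 0.13, adjusted p = 0.0203). Both kept their call in all 10 fits that left out 1 array, and the other Me1 probe set differed by -0.69 (adjusted p = 0.112). The aldehyde reductase Akr7a5 fell by 0.39 and the transketolase Tkt fell by 0.33 (adjusted p = 0.0286 and 0.0299). The other Akr7a5 probe set differed by -0.27 (adjusted p = 0.158) and the other Tkt probe set by -0.42 (adjusted p = 0.0278). The efflux transporter Abcc3 fell by 1.45, the glutathione transferase Gstm6 fell by 0.34 and the canalicular transporter Abcc2 rose by 0.66 (adjusted p = 0.0384, 0.0392 and 0.0460). These 5 calls were each lost in 5 to 8 of the 10 fits that left out 1 array, none of them without mutant replicate 5. Lower calls numbered 1 when control replicate 2, 4 or 5 was omitted, 2 for mutant replicate 1, 2 or 4, 3 for control replicate 1, 4 for replicate 3 of either group and 6 for mutant replicate 5. The number that rose was 3 without mutant replicate 5, 2 without control replicate 1 and 1 otherwise.

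In the list of haem synthesis and breakdown, iron storage and superoxide removal, 3 of 13 genes fell and 0 rose, with a median of -0.18. Of the 13 differences 3 were positive, and none of these was called. They include Alas1 at 1.18 (adjusted p = 0.105) and Slc40a1 at 0.36 (adjusted p = 0.0798). Blvrb, a biliverdin reductase, stood between 10.67 and 10.93 in controls and between 9.33 and 10.48 in mutants. It fell by 0.96 (SE 0.18, adjusted p = 0.0140) and kept its call in all 10 fits that left out 1 array. Sod1, the cytosolic superoxide dismutase, fell by 0.35 and Fech, which inserts iron into protoporphyrin to make haem, fell by 0.29 (adjusted p = 0.0314 and 0.0335). Each was called in only 2 of the 10 fits that left out 1 array. Of 4 Sod1 probe sets 1 was called, and the others differed by -0.37, -0.15 and 0.001 (adjusted p = 0.0542, 0.468 and 0.999). Of 3 Fech probe sets 2 were called lower. Lower calls numbered 3 when mutant replicate 5 was omitted, 2 for control replicate 2 or 5 and 1 for any other array. Blvrb and Fech are also genes of red cell precursors, whose 4 measured markers had a median of -0.49 with 0 called. The log2 of their summed signal ran from 10.03 to 11.13 in controls and from 9.65 to 10.89 in mutants, and their part in these differences was not tested.

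**Figure D5:**
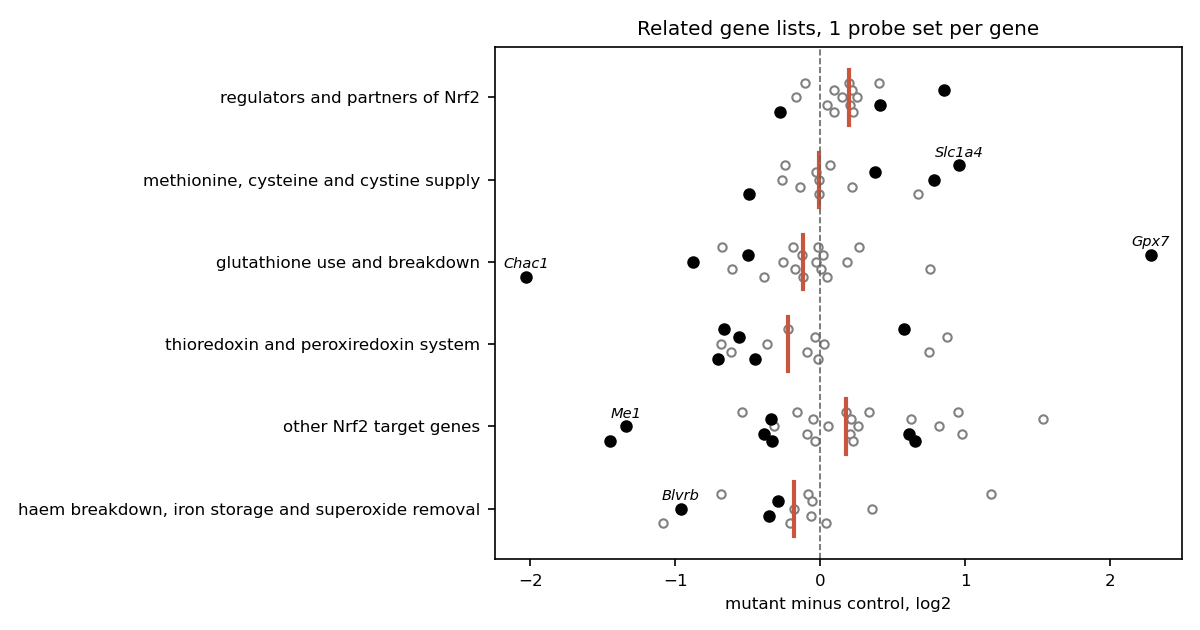
Difference of mutant minus control on the log2 scale for the measured genes of 6 related lists, 1 point per gene by its brightest probe set; filled points were called at an adjusted p under 0.05, open points were not, and the red bar is the list median. Called genes lie on both sides of 0 in 5 lists and only below 0 in the haem, iron and superoxide list.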

How the data were processed

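Biotin-labelled liver RNA was hybridised to arrays whose probe set names have the Affymetrix form. The deposited table, 1 log2 signal for each probe set and array, was used as the authors made it; array medians run from 6.40 to 6.67. The log base was read from the values. How background was corrected, probes summarised and arrays normalized: not given in the sources used here. After 37 control probe sets were left out, limma 3.58.1 (lmFit, eBayes; R 4.3.3) compared the groups on the other 25958, without a block. Its p-values are two-sided and Benjamini-Hochberg adjusted over all 25958. The model was tested on simulated data. Symbols came from the platform annotation, checked against RefSeq gene identifiers (0 changed). Intervals are 95% from the model, and the number of arrays limits their precision. The genes and lists were chosen with earlier results of these data known. Named are all 10 genes, Dicer1, the 3 genes most like Gclc and Nfe2l2, and up to 4 genes with the smallest p per list. Other called list genes and Alas1 were chosen after their values were seen, and some list genes are named as unmeasured or dim. Alternatives were other normalizations, a dim filter, other probe set rules, model options, a replicate block and omission of each array. The labels name no litters, so the tests weigh differences against the variation among these animals alone.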

Additional observations from a re-analysis of the deposited data

Results flagged for a closer look

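Among 43 probe sets screened, 1 signal was flagged as far from the rest of its group. Chac1 in control replicate 4 was 8.854, against 7.939 to 8.2 in the other 4 controls, a gap of 0.715 of the group's range, where Dixon's limit for 5 samples is 0.71. It was the only such value among 86 groups of 5 tested, and chance flags about 1 in 20 groups. Not every gene named here was screened. Gstm6 was not, and its control replicate 3 was 9.606, against 9.831 to 9.897 in the other 4 controls. That gap also passes the limit.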

How the results depend on the processing

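With 1 array left out, the 10 genes gave 1 call higher and 1 lower in every fit, and the Gclc minus Gclm difference ran from -1.05 to -0.77. The bright minus the dim Nfe2l2 probe set within an array differed between groups by 1.54 to 2.84. It is not read as a result, since it was chosen after the values were seen and 1 dim value lay below the 25th percentile of all values. Over all probe sets the calls ran from 776 to 2115 higher and from 770 to 3194 lower. They were lowest without mutant replicate 4 and highest without mutant replicate 5. On the first principal component (46.8% of the variance) mutant replicate 5 lay at -15.4, nearer to the controls. Controls lay from -45.8 to -25.6 and the other mutants from 33.4 to 62.2. The Dicer1 signals of mutant replicate 5, 6.98 and 5.84, lay within the range of the other mutants. Higher calls ran from 0 to 3 among regulators of Nrf2, 1 to 3 in the methionine and cysteine list and 1 to 2 in glutathione use. They ran from 0 to 1 in the thioredoxin list and from 1 to 3 among other targets. Lower calls ran from 0 to 1, 0 to 2, 1 to 4, 2 to 7 and 1 to 6 in the same order, and from 1 to 3 in the haem list. Gclc was called under every alternative run.

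With dim probe sets left out, Hmox1 joined Nfe2l2, so that 2 of the 10 genes and 2 of their probe sets were higher, and 1 gene of the haem list, which does not include Hmox1, was higher. With each gene read by its most variable probe set, 0 of the 10 genes were higher and 2 thioredoxin genes were lower. With the mean of a gene's probe sets, 0 of the 10 were higher, 917 of all genes were higher, and 0 regulators were lower and 0 thioredoxin genes higher. With array medians subtracted, 1 regulator was higher, 0 were lower and 1 other target was higher. Nfe2l2 turned to -1.58 by its most variable probe set and -0.51 by the mean, and Prdx2 to 1.58 and 0.57. Nqo1, which ran from -0.039 to 0.318 over these fits, turned to -0.039 without control replicate 1 and -0.028 without mutant replicate 5, and the dimmer Gss probe set to 0.032, 0.020 and 0.063 without control replicate 2, control replicate 4 or mutant replicate 5, within a range of -0.138 to 0.063. The causes were not tested, apart from the choice of probe set itself.

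Same-numbered livers did not deviate together (correlations of -0.18 to 0.15, with 2 of 5 over 0.1). With the replicate number as a block, 2 of the 10 genes and 2 of their probe sets were higher, Hmox1 being added (limma, adjusted p = 0.0486), and 907 of all probe sets were higher. Under the block 0 regulators, 0 methionine and cysteine genes and 1 gene of glutathione use were lower. So were 1 thioredoxin gene, 2 other targets and 1 haem list gene. Higher were 1 methionine and cysteine gene, 0 thioredoxin genes and 1 other target. Cth, Bhmt, Chac1 and Msra were among the genes whose call was lost (adjusted p = 0.0520, 0.0555, 0.0514 and 0.0589), while Nfe2l2 and Gclc kept theirs.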
